A study of Mus musculus with 32 samples.

Results

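The Polycomb marks H2AK119ub and H3K27me3 were compared with each other in non-growing mouse oocytes of the PRC2 control genotype at postnatal day 6. H2AK119ub is ubiquitin on a lysine of histone H2A, and H3K27me3 is trimethylation of a lysine of histone H3. Both were profiled by CUT&Tag, in which an antibody brings a transposase to chromatin that carries a mark and the cut fragments are sequenced. The members were the 4 PRC2 control samples of this stage, of 32 samples in the series: 2 for H2AK119ub and 2 for H3K27me3, chosen by genotype, stage and antibody. The mice carried 1 floxed and 1 wild-type allele of Eed, a core subunit of PRC2, together with Ddx4-Cre, which is expressed in germ cells, so the oocytes are labelled as heterozygous for the floxed allele and the deletion itself was not measured here. The comparison groups of the same stage were WT oocytes, whose labels name no Cre, and PRC2cKO oocytes with a floxed and a null Eed allele and Ddx4-Cre, each with 2 samples per mark. The authors deposited 1 peak list per mark and genotype, so the 2 samples cannot be set against each other. No difference here has a replicate check or a p-value, and the 95% intervals (exact Clopper-Pearson) cover counting error only.

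H2AK119ub is written by Polycomb repressive complex 1, whose catalytic subunits are Ring1 and Rnf2. H3K27me3 is written by Polycomb repressive complex 2, in which Ezh1 or Ezh2 is the enzyme and Eed and Suz12 are partners that it needs. Each complex has subunits that bind the other's mark, and the marks lie together over silent developmental genes in many cell types, while some forms of PRC1 deposit H2AK119ub without any need for H3K27me3. Non-growing oocytes rest in primordial follicles before recruitment into growth.

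The H2AK119ub list held 56505 peaks over 497.9 Mb and the H3K27me3 list 53609 peaks over 558.0 Mb of the 19 autosomes and the X chromosome. Marking was scored at gene ends: a gene counted if any peak reached within 1 kb of its annotated start or end, by as little as 1 bp. Of 21887 protein-coding genes, 7728 carried both marks (35.3%, 95% interval 34.7 to 35.9), 5031 carried H2AK119ub only (23%) and 1414 carried H3K27me3 only (6.46%). The other 7714 genes carried neither. H2AK119ub marked 58.3% of genes and H3K27me3 41.8%, so the same 7728 genes make up unlike shares of the genes under each mark. Of the H3K27me3 genes, 84.5% (83.8 to 85.3) also carried H2AK119ub, beside 58.3% of all genes. Of the H2AK119ub genes, 60.6% also carried H3K27me3, beside 41.8% of all genes. The difference between the shares follows from these totals.

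Promoter sequences of the 3 classes differed in the density of CG dinucleotides (CpG), which some Polycomb recruiters bind. The 250 bases before the annotated start (RefSeq, GRCm38.p6, 5′ to 3′ on the gene's strand) are shown for 2 genes of each class, with every CG in capitals, because the classes differed in this density. Six2 (both marks, chr17:85688255-85688504, minus strand) encodes a homeodomain transcription factor of kidney progenitors, and Hoxa3 (both marks, chr6:52213068-52213317, minus strand) patterns the neck and hindbrain. Siva1 (H2AK119ub only, chr12:112644578-112644827, plus strand) encodes an apoptosis factor, and Chmp2a (H2AK119ub only, chr7:13034778-13035027, minus strand) a subunit of the membrane-remodelling ESCRT machinery. Ifna11 (H3K27me3 only, chr4:88819669-88819918, plus strand) encodes a type I interferon, and Krt26 (H3K27me3 only, chr11:99337966-99338215, minus strand) a hair keratin. All 6 stretches lie outside the annotated protein-coding genes, and each start site lay in the class of its gene. They held 26 CpG in Six2 and 18 in Hoxa3, 24 in Siva1 and 10 in Chmp2a, and 0 in Ifna11 and 5 in Krt26.
Six2: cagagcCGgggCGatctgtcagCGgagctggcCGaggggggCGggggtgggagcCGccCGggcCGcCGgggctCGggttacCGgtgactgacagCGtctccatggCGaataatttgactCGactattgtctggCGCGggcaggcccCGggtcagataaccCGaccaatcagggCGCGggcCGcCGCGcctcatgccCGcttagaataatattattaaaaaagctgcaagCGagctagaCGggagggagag
Hoxa3: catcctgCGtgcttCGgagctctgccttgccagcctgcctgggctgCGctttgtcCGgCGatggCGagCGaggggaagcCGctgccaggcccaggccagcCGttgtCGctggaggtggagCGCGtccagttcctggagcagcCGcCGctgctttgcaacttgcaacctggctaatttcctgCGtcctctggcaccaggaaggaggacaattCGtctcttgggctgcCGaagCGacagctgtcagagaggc
Siva1: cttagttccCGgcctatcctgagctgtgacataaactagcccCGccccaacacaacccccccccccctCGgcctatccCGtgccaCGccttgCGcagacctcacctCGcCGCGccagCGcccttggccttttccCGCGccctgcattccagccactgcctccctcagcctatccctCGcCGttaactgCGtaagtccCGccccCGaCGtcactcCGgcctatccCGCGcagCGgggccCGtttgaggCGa
Chmp2a: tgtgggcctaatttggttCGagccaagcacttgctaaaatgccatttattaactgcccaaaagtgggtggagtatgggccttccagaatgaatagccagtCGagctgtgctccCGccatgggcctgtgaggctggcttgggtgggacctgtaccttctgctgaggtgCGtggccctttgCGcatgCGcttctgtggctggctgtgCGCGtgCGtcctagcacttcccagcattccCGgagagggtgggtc
Ifna11: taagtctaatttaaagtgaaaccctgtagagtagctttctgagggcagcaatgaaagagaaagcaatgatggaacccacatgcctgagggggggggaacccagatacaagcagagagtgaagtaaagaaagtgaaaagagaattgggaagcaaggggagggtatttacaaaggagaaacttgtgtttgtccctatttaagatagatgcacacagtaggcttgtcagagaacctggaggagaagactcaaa
Krt26: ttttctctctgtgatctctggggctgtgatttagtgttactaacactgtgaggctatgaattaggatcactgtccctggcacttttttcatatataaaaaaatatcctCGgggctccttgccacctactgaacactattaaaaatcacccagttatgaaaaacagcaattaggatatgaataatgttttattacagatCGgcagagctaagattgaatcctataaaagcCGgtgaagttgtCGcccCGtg

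Over all promoters, CpG density was highest at H2AK119ub-only genes and lowest at H3K27me3-only genes, with genes of both marks between them, an order that Six2 (26 CpG) and Siva1 (24 CpG) do not follow. A promoter of 300 bases was called CpG-rich when its observed over expected CpG was at least 0.6 and its GC content at least 50%. By the class of the gene, 61.9% of promoters of H2AK119ub-only genes were CpG-rich (60.6 to 63.2), 37.2% of promoters of genes with both marks (36.1 to 38.3) and 10.6% of promoters of H3K27me3-only genes (8.94 to 12.3), beside 45.1% of all 21263 promoters. The median observed over expected CpG was 0.73, 0.48 and 0.21 in the same order, and 0.61 for genes with neither mark. Median GC content differed as well, at 60.3%, 57.3% and 45.3% in that order. A promoter without a single CpG, like that of Ifna11 in the part printed, was found at 12.2% of H3K27me3-only promoters and at 1.37% of H2AK119ub-only promoters. For genes with neither mark this share was 8.57%, and over all promoters 4.63%.

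**Figure D1:**
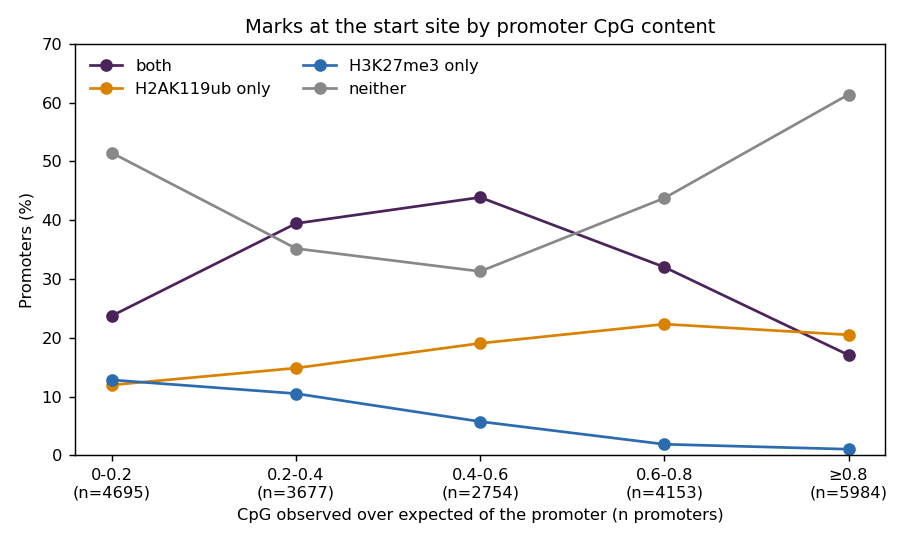
Share of promoters (%) in each class by the marks within 1 kb of their own start site, over 5 ranges of observed over expected CpG (n promoters under each range). H3K27me3 alone fell from 12.8% of promoters below 0.2 to 1.04% at 0.8 and above, while both marks together were most frequent, at 43.9%, between 0.4 and 0.6.

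When each promoter was classed by the marks within 1 kb of its own start site, the classes had their highest shares at different CpG densities. H3K27me3 without H2AK119ub was found at 12.8% of promoters with an observed over expected CpG below 0.2 and at 1.04% of those at 0.8 or above. H2AK119ub alone was least frequent below 0.2 (12.0%) and reached 22.3% between 0.6 and 0.8. Both marks together were most frequent between 0.4 and 0.6 (43.9%) and least frequent at 0.8 and above (17.1%), where 61.4% of promoters carried neither.

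At the start sites themselves the marks had different profiles. At CpG-rich promoters (n = 9600), an H2AK119ub peak covered 43.4% of start sites and 28.7% of positions 5 kb upstream, whereas an H3K27me3 peak covered 23.4% and 22.8%, and 17.0% of positions 5 kb downstream. H3K27me3 coverage thus differed little between the start and upstream positions, yet 96.1% of the CpG-rich starts under H3K27me3 also lay under H2AK119ub, against 64.7% of the H3K27me3-covered positions 5 kb upstream. At the other promoters (n = 11663) both marks rose at the start, H2AK119ub from 26.1% to 44.8% and H3K27me3 from 28.0% to 40.8%. Of these starts under H3K27me3, 75.2% also lay under H2AK119ub.

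**Figure D2:**
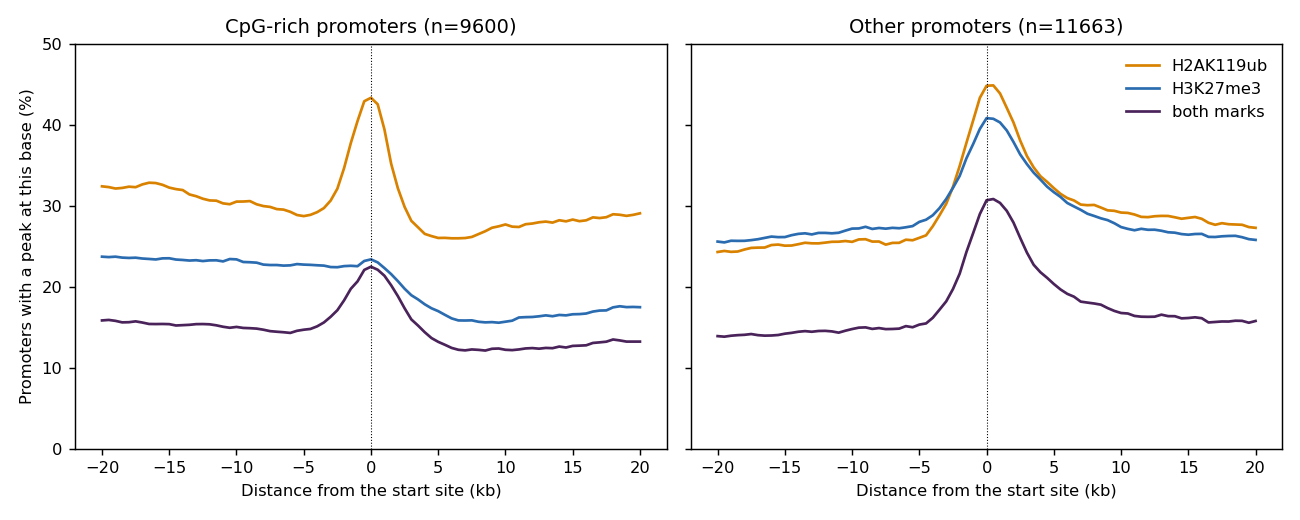
Share of promoters (%) with a peak at each distance from the start site (kb, in the direction of transcription), for CpG-rich (left, n = 9600) and other promoters (right, n = 11663). At CpG-rich starts the H2AK119ub line peaks at 43.4% while the H3K27me3 line is at 23.4% there and 22.8% 5 kb upstream, and at other starts the lines peak at 44.8% and 40.8%.

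The classes were far from evenly spread over gene groups. Each count below stands beside the shares of all genes, 35.3% with both marks, 23% with H2AK119ub only and 6.46% with H3K27me3 only. Many of the developmental genes listed are known Polycomb targets. Total signals were ranked within each list, and a percentile below is the rank of the strongest peak that marks a gene, with 100 as the highest. Covered lengths are over windows of 5 kb to each side of both gene ends, at most 20 kb per gene.

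The listed developmental transcription factors carried both marks without exception. All 39 Hox genes, which set position along the body axis, and all 102 listed developmental transcription factors had both. At Hoxa3 both marks covered all 20 kb of the windows, at percentiles of 99.9 for H2AK119ub and 99.96 for H3K27me3. Hoxd13, a digit and genital patterning gene, was covered by both over all 13.4 kb. Over the Hox genes the median percentiles were 99.9 and 99.96, with a median of 13.7 kb under both marks. Emx1, Gata5, Isl1 and Otx2, regulators of forebrain, heart and endoderm, motor neurons and anterior head, were each covered by both marks over all 20 kb. Sox2, a pluripotency and neural factor, had less: 4.45 kb of H2AK119ub and 9.26 kb of H3K27me3, with 4.11 kb shared.

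Signalling genes and ion channels came next. Of 61 developmental signalling genes, 55 had both marks, among them Wnt10a, Wnt11, Gli2 and Gdf10, all covered by both over 20 kb. The Notch ligands Jag1 and Jag2, the FGF receptor Fgfr1 and the TGF-beta ligand Gdf3 carried H2AK119ub only, the bone morphogenetic protein gene Bmp5 carried H3K27me3 only, and the receptor gene Notch2 neither. Of 63 ion channel and transmitter receptor genes, 56 had both marks. Those without both included Kcnh1 (9.01 kb) and Chrna7 (2.70 kb) with H2AK119ub only, and Kcnj3 with neither.

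**Figure D3:**
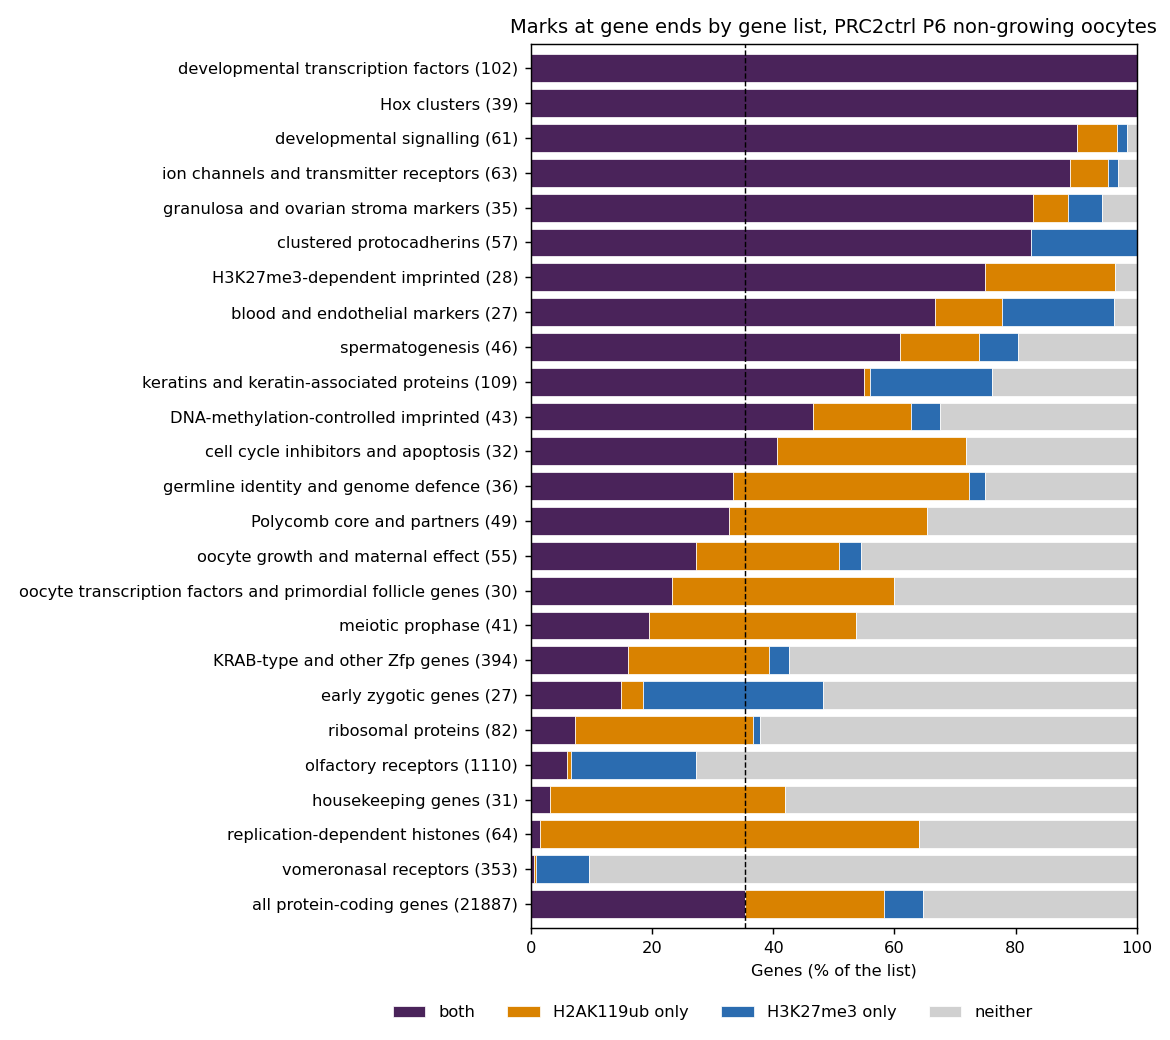
Share of genes (%) with both marks, a single mark or neither in each gene list (number of genes in brackets), in order of the share with both, and over all protein-coding genes at the bottom. The dashed line is the share of all genes with both marks (35.3%), and 12 of 24 lists lie above it. Blue, for H3K27me3 only, is 6.46% of all genes and is longest in the early zygotic bar (29.6%).

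Genes of the oocyte's own programme carried both marks in 27.3% (16.1 to 41.0) and 23.3% (9.93 to 42.3) of cases in the growth list and the transcription factor list, intervals that include the 35.3% of all genes. Of 55 oocyte growth and maternal effect genes, 15 had both marks, 13 H2AK119ub only, 2 H3K27me3 only and 25 neither. Those with both included Dnmt3l, the cofactor of DNA methylation in oocytes (17.8 kb under both), Zar1, a maternal RNA-binding factor (9.26 kb), and Bmp15, an oocyte growth factor. H2AK119ub lay alone at Gdf9 (4.69 kb), the other oocyte growth factor, and at Dnmt1 (10.6 kb), Zp2 and Khdc3. At the histone chaperone gene Npm2, 10 kb of H2AK119ub met 2.64 kb of H3K27me3 that did not reach the 1 kb windows. Zp3, Kit and most listed Nlrp genes had neither, while Nlrp2 and Nlrp9a, members of a cytoplasmic maternal family, had H3K27me3 only. Of 30 oocyte transcription factor and primordial follicle genes, 7 had both marks, 11 H2AK119ub only, 0 H3K27me3 only and 12 neither. Lhx8 had both (8.27 kb shared), Sohlh1, Sohlh2 and Tsc1 had H2AK119ub only, and Figla, Nobox and Foxo3 had neither.

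Meiotic prophase genes carried both marks in 19.5% of cases (8.82 to 34.9) and germline genes in 33.3% (18.6 to 51.0), beside 35.3% of all genes. Of 41 meiotic prophase genes, 8 had both marks, 14 H2AK119ub only and 0 H3K27me3 only. Stra8, which starts the meiotic programme, had both (8.97 kb), and Rec8 (15.0 kb), Spo11 (9.42 kb), Msh5 and Sycp3, which act in cohesion, break formation and recombination, had H2AK119ub only. In the list of 36 germline identity and genome defence genes, 12 had both marks, 14 H2AK119ub only and 1, Piwil1, H3K27me3 only, although 8.80 kb of H2AK119ub lay in the 5 kb windows of Piwil1. Nanog had 14.9 kb of H2AK119ub and 0 kb of H3K27me3, and Pou5f1 4.47 kb and 0 kb. Of 46 spermatogenesis genes, 28 had both marks. Prm1, a protamine that packs sperm DNA, had 9.01 kb under both, at percentiles of 99.5 and 97.9.

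Both marks lay at 75% (55.1 to 89.3) of the H3K27me3-dependent imprinted genes and at 46.5% (31.2 to 62.3) of those imprinted through DNA methylation. The second interval includes the 35.3% of all genes. Of 28 genes of the H3K27me3-dependent imprinted list, whose maternal allele is silenced after fertilisation without oocyte DNA methylation, 21 had both marks. Hunk, Clic6, Grik3 and Matn1 were covered by both over all 20 kb, and Sfmbt2 over 8.28 kb. Bbx, E2f3, Etv6, Jade1, Mbnl2 and Sh3gl3 had H2AK119ub only, Jazf1 neither, and none H3K27me3 only. At Mbnl2 and Jazf1 H3K27me3 peaks lay farther out, with 6.89 kb and 2.30 kb in the 5 kb windows. Of 43 genes imprinted through DNA methylation, 20 had both marks, 7 H2AK119ub only, 2 H3K27me3 only (Slc22a2 and Snrpn) and 14 neither. Kcnq1, Slc22a18, Dlk1 and Rtl1 were covered by both over 20 kb, whereas Peg3, Zdbf2 and Mcts2 had neither mark.

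The Polycomb genes were themselves marked in part. Of 49, 16 had both marks, 16 H2AK119ub only and 0 H3K27me3 only. Cbx2, Cbx7 and Cbx8, chromobox subunits of canonical PRC1, each had both marks (12.0 kb at Cbx8), while Cbx6 had 20 kb of H2AK119ub and 0 kb of H3K27me3. Ring1 (10.8 kb) and Ezh1 (4.70 kb) had H2AK119ub only, and Rnf2, Ezh2 and Suz12 had no peak of either mark in the 5 kb windows. The floxed gene Eed was in the neither class, with 2.20 kb of H2AK119ub in the 5 kb windows. Of 32 cell cycle inhibitor and apoptosis genes, 13 had both marks and 10 H2AK119ub only. Cdkn1c and Trp73 were among the first, and Bax, Bad, Bid and Casp9 among the second.

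Most markers of other ovarian cells carried both marks. Of 35 granulosa and stroma markers, 29 had both, among them Foxl2 (12.5 kb), Wnt4 (20 kb), Wt1 (20 kb) and Nr5a1 (20 kb). Of 27 blood and endothelial markers, 18 had both and 5 had H3K27me3 only, including Ptprc and the globin genes Hbb-bs and Hbb-bt, whereas Hba-a1 had both over all 10.8 kb. Peak lists of these marks do not measure expression, so they give no purity of the oocytes. Among the oocyte's defining genes, Zp3, Kit, Figla and Nobox had neither mark, Gdf9, Dazl and Sohlh1 H2AK119ub only, and Lhx8 and Ddx4 both.

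Most genes in the histone, ribosomal protein and housekeeping lists carried H2AK119ub without H3K27me3, or neither mark. Of 64 genes listed as replication-dependent histones, 40 had H2AK119ub only, 1 (H1f5) had both marks and 0 H3K27me3 only. The highest percentile, 95.7, was that of H2bc22, H2bc23, H2ac23 and H4c17 on chromosome 13. Of 82 ribosomal protein genes, 24 had H2AK119ub only, 6 both and 1 H3K27me3 only, and that gene was Rpl39l, a paralog. Of 31 housekeeping genes, 12 had H2AK119ub only and 1, Gusb, both. Gapdh had 13.2 kb of H2AK119ub and 0 kb of H3K27me3.

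H3K27me3 without H2AK119ub occurred in some tandem gene families. Of 1110 olfactory receptor genes, 228 (20.5%) had H3K27me3 only, 67 both and 7 H2AK119ub only, and 808 had neither. Of 353 vomeronasal receptor genes, 31 (8.78%) had H3K27me3 only, near the 6.46% of all genes, 2 had both and 319 neither. None of 948 olfactory receptor promoters was CpG-rich. Keratins and keratin-associated proteins split: 60 of 109 had both marks, as at Krt7 (20 kb), and 22 had H3K27me3 only, as at Krt26 (19.5 kb of H3K27me3, 0 kb of H2AK119ub). Of 57 clustered protocadherins, cell surface proteins that give neurons their identity, 47 had both marks and the other 10, all of the Pcdhb group, had H3K27me3 only. Genes transcribed early in the zygote also had H3K27me3 without H2AK119ub in 8 of 27 cases, among them Obox6 (14.5 kb), Tdpoz3 and Tdpoz4. Members of these families share sequence, so reads may not be placed with certainty, and neighbours share peaks.

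Ranked by signal, the strongest genes with both marks were Gas8, Six2, Six3, Pax2, Cyth4, Elfn2, Cfap57, Tmem125, Arsi and Camk2a, taken by the lower of their percentiles, which was at least 99.9 for each. Six2 and Six3 shared a region of 266.2 kb. Gas8 was marked at the end of the gene opposite to the start used for the promoter, in a region of 91.6 kb on chromosome 8. The leading single-mark genes were not isolated from the other mark. Cdca4, Ccdc186, Kdm4b, Siva1, Zdhhc8, Tmem258, Otub1, Atp13a3, Taf8 and Dpp9 led the H2AK119ub-only genes without H3K27me3 in the 5 kb windows, and for all 10 the H2AK119ub peak, 60.2 to 153.5 kb wide, met H3K27me3 elsewhere along its length. At Siva1 the H2AK119ub peak spanned 129.4 kb and ended 0.74 kb past the start, whereas the H3K27me3 peak ended upstream, at -6.08 kb.

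The same held for 9 of the 10 leading H3K27me3-only genes: Ifna11, Ifna7, Zswim2, Svs2, Fam172a, Adgre1, Cd300lb, Fpr1 and Fpr2. At Ifna11 a 49.99 kb H3K27me3 peak reached 0.80 kb past the start, and the 36.6 kb H2AK119ub peak nested in it ended upstream, at -10.2 kb. The exception was Slfn8, of a family of interferon-induced genes, which in the control lay in a 65.8 kb H3K27me3 peak free of H2AK119ub. In WT and PRC2cKO oocytes Slfn8 carried both marks. Over all single-mark genes such edges were in the minority. The marking peak met the other mark elsewhere for 28.4% of the H2AK119ub-only genes (1427 of 5031) and 31.2% of the H3K27me3-only genes (441 of 1414). Those peaks had median widths of 22.4 and 24.3 kb, against 5.52 and 6.38 kb for the peaks that met no other mark.

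**Figure D4:**
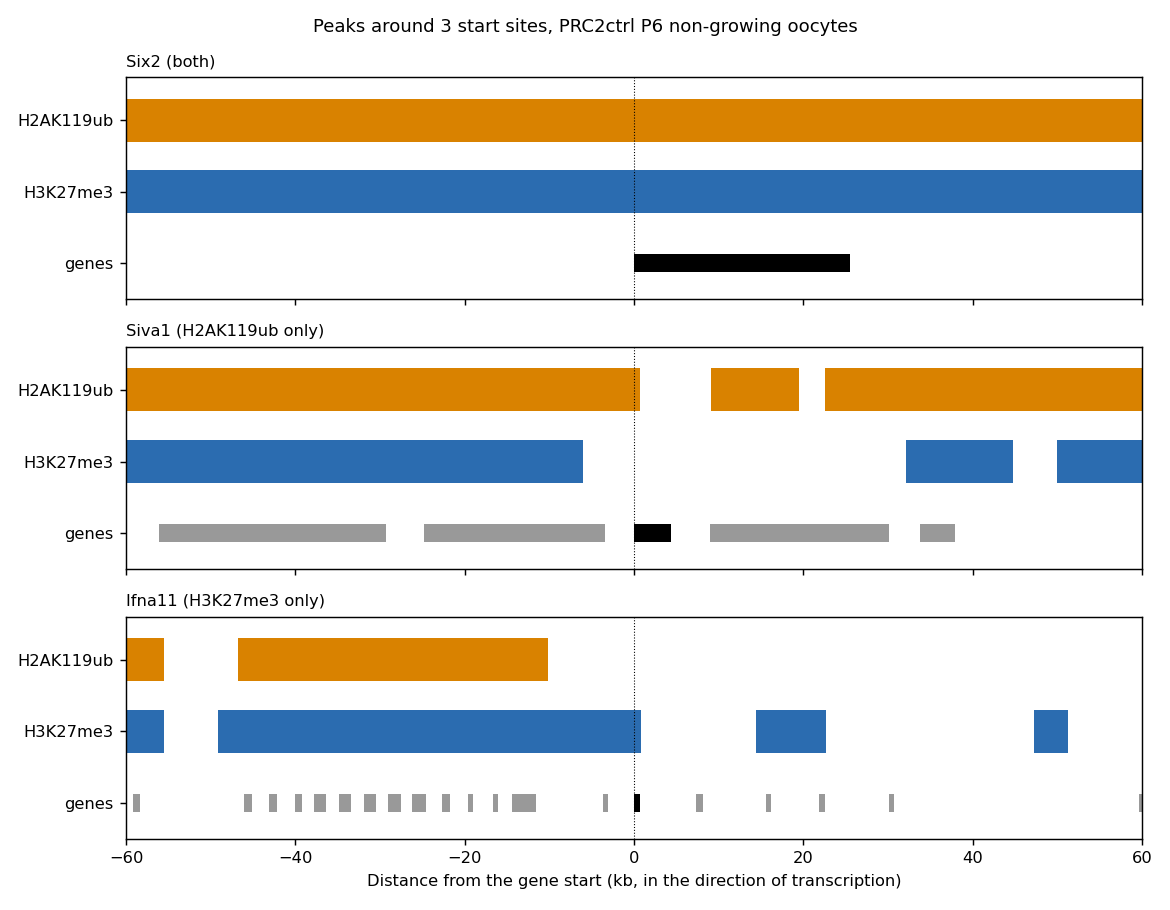
Peaks of H2AK119ub (orange) and H3K27me3 (blue) within 60 kb of the start sites of Six2, Siva1 and Ifna11, by distance from the start in the direction of transcription (kb). The named gene is black and other protein-coding genes are grey. At Six2 both marks fill the window, at Siva1 the upstream H3K27me3 peak ends at -6.08 kb and the next begins at 32.1 kb, and at Ifna11 the nested H2AK119ub peak ends at -10.2 kb.

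Within genes that had both marks, the 2 ranks were often both high. In 2945 of 7728 genes (38.1%) both percentiles were at 90 or above, which places them within 10 points by construction. These are part of the 4381 genes (56.7%) whose percentiles lay within 10 points. Each percentile is that of a gene's strongest peak, with medians of 91.0 for H2AK119ub and 91.9 for H3K27me3. Their nearness therefore says little about a relation of the signals. H2AK119ub ranked higher in 47.8%. The widest gaps toward H2AK119ub were at Got1 (98.0 against 0.59), Ptgds, Cry2, Cenpo and Lcat, of which Got1 is an aminotransferase and Cry2 a clock repressor. The widest gaps toward H3K27me3 were at Oas2 (98.96 against 1.15), an antiviral synthetase, and at Svs3b, Ap2s1, Olfr1412 and Krt32. The cell cycle inhibitor Cdkn1a had a similar gap, with 16.7 kb of H2AK119ub at percentile 95.7 and 2.75 kb of H3K27me3 at percentile 4.29.

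By peak, 58.6% of H2AK119ub peaks (33129) and 53.4% of H3K27me3 peaks (28640) overlapped the other mark by at least 1 bp. By length, 282.2 Mb carried both, which was 56.7% of the H2AK119ub length and 50.6% of the H3K27me3 length. Sharing rose with width. Of H3K27me3 peaks below 2 kb, 29.1% met H2AK119ub, of those of 5 to 10 kb 55.2%, and of those of 50 kb or more all but 7 of 1289 (99.5%). Of H2AK119ub peaks, 51.7% below 2 kb, 45.1% at 2 to 5 kb, 62.6% at 5 to 10 kb and all but 6 of 821 at 50 kb or more (99.3%) met H3K27me3. A wider peak has more bases on which to meet another, and this geometric part was not separated. The 5 widest H2AK119ub peaks without H3K27me3 all lay over genes, with the widest, 76.3 kb, at Shank2, a synaptic scaffold gene. Of the 5 widest H3K27me3 peaks without H2AK119ub, 4 lay over no protein-coding gene, the widest (70.1 kb) being 126.7 kb from S1pr1.

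Sharing also rose with signal. From the lowest to the highest 10% by total signal, the shared portion rose from 26.9% to 97.4% of H3K27me3 peaks and from 36.0% to 94.6% of H2AK119ub peaks. Total signal is a sum over the width, so peaks of 2 to 10 kb were ranked by signal per bp as well. The shared portion then rose from 34.6% to 77.8% for H3K27me3 and from 36.3% to 74.7% for H2AK119ub. Shared H3K27me3 peaks had a median percentile of 67.7 and a median width of 8.08 kb, against 33.7 and 4.01 kb for single ones. For H2AK119ub these were 63.4 and 6.42 kb against 34.2 and 3.92 kb.

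**Figure D5:**
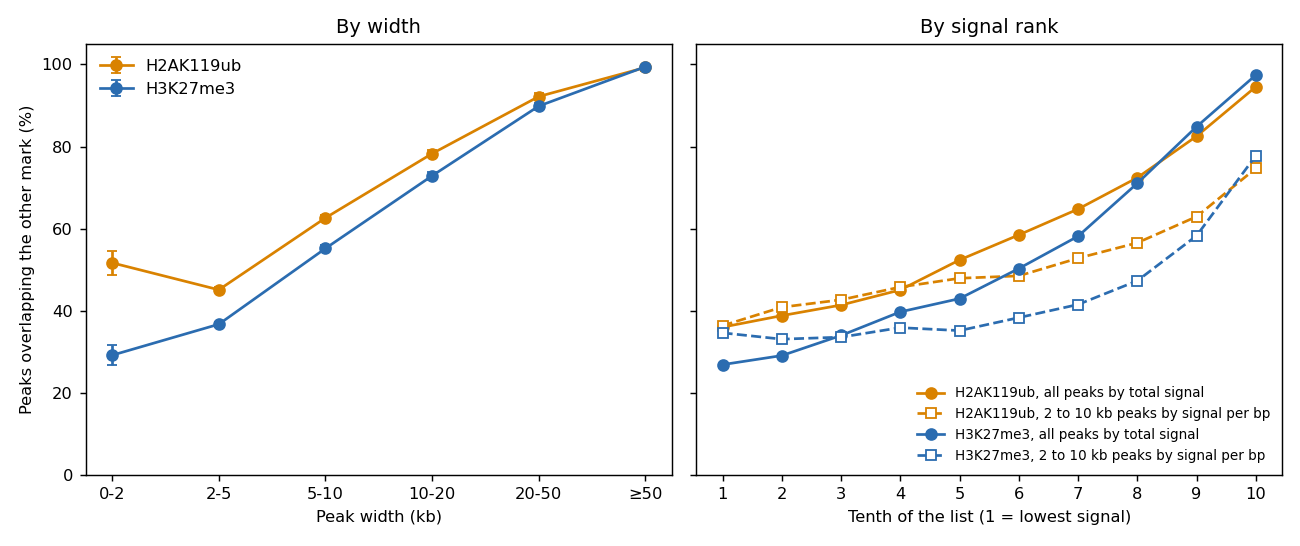
Peaks that overlap the other mark (%), by peak width in kb (left, bars are exact 95% intervals of counting error) and by decile of the list (right), for H2AK119ub (orange) and H3K27me3 (blue). Filled points rank all peaks by total signal and open points rank peaks of 2 to 10 kb by signal per bp. At 50 kb or more 99.3% and 99.5% of peaks are shared.

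The ranks of paired peaks were only loosely related. Over 28640 pairs, each H3K27me3 peak with the H2AK119ub peak that overlapped it most, Spearman's rho of the total signals was 0.36. Each list is 1 set of libraries, which all its pairs share. By maximum signal rho was 0.36 and by signal per bp 0.32, and with peaks of 2 to 10 kb alone it was 0.096. Of 5223 pairs whose H3K27me3 peak was in the highest 10%, 2857 (54.7%) also had the H2AK119ub peak in its highest 10%. Pairs hold shared peaks only, which rank higher than single ones, and total signal is a sum over width. The share over all pairs was not computed, so 54.7% says little about a relation of the signals. The points of maximum signal lay a median of 1.66 kb apart, and 41.5% within 1 kb. Of the shared H3K27me3 peaks, 86.4% had their maximum inside an H2AK119ub peak, and of the shared H2AK119ub peaks 89.1% had theirs inside an H3K27me3 peak. Shared peaks lie under the other mark over part of their length by definition. The part of these shares that follows from this overlap was not separated.

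In the control, H3K27me3 peaks were the wider. Their median width was 5.42 kb against 4.81 kb, and 1289 against 821 reached 50 kb. Of H2AK119ub peaks, 24.5% lay whole inside 1 H3K27me3 peak (24.2 to 24.9), whereas 14.4% of H3K27me3 peaks lay whole inside 1 H2AK119ub peak (14.1 to 14.7). A shared H3K27me3 peak met several H2AK119ub peaks in 16.5% of cases, against 7.29% the other way round. The extremes were regions near Mn1 (chromosome 5, 421.1 kb), where 1 H3K27me3 peak held 23 H2AK119ub peaks over 57.8% of the region, and over Sez6l and Myo18b (380.3 kb, 25 H2AK119ub peaks over 50.7%). The widest region of all, 677.6 kb on chromosome 8, ran over Irf8, Foxf1, Mthfsd, Foxc2 and Foxl1, with H2AK119ub on 95.2% and H3K27me3 on 98.9% of its length. This order of the marks depended on the lists compared: in WT oocytes of this stage the H2AK119ub peaks were the wider (7.00 against 4.34 kb) and 32.7% of H3K27me3 peaks were nested against 9.59% of H2AK119ub peaks. PRC2cKO oocytes had the order of the control, with 20.2% of H2AK119ub and 11.5% of H3K27me3 peaks nested. The WT H2AK119ub list covered 727.6 Mb and the WT H3K27me3 list 532.1 Mb. The marks of each genotype were also trimmed to equal covered length, the WT trim being chosen after seeing the data. This trim drops the peaks of lowest total signal from the longer list, which was already the wider one in both genotypes. It therefore cannot show whether the order of widths depends on covered length. Nested shares of H2AK119ub and H3K27me3 peaks were then 23.9% and 13.9% in the control and 8.64% and 26.5% in WT, and median widths 4.81 and 8.69 kb in the control and 14.5 and 4.34 kb in WT.

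Merging both lists gave 73951 regions: 25606 with both marks (median width 12.1 kb), 23376 with H2AK119ub only (3.92 kb) and 24969 with H3K27me3 only (4.01 kb). The classes lay in different places. A wider region has more bases on which to reach a gene end, and this part was not separated for the regions with both marks. Of the regions with both marks 28.5% touched a gene end (28.0 to 29.1), of those with H2AK119ub only 17.1% (16.6 to 17.6) and of those with H3K27me3 only 5.03% (4.76 to 5.30). H2AK119ub-only regions were most often inside gene bodies (39.9%, against 22.2% of regions with both marks and 21.6% of H3K27me3-only regions). H3K27me3-only regions lay most often farther than 50 kb from any protein-coding gene (52.6%). For regions with both marks this share was 26.5%, and for H2AK119ub-only regions 19.6%. In WT and PRC2cKO oocytes the share of H3K27me3-only regions this far away was 52.8% and 54.0%. The shares of the genome in these places were not computed. In 1 Mb bins (n = 2641) the covered shares of the marks went together, with a Spearman's rho of 0.73, given as a description. Both marks covered over 20% in 806 bins. In 82 bins H3K27me3 covered over 20% and H2AK119ub under 5%, and in 7 bins the reverse held. The same limits were used for both marks, although the median bin had 17.8% under H3K27me3 and 13.0% under H2AK119ub. The part of the difference that follows from this was not separated.

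Among chromosomes the X stood apart. It held 16.3 Mb of H2AK119ub and 32.2 Mb of H3K27me3. The same 12.4 Mb under both marks is divided by these unequal lengths in the shares that follow. Chromosome 19 had the opposite imbalance, with 20.0 Mb of H2AK119ub and 14.1 Mb of H3K27me3. The X is described next. On it 76.3% of the H2AK119ub length also carried H3K27me3, beyond all 19 autosomes (49.98 to 63.4%), while 38.6% of its H3K27me3 length carried H2AK119ub, below all of them (40.9 to 71.9%, with chromosome 19 the highest). H3K27me3-only genes made up 11.8% of X-linked genes (autosomes 1.68 to 9.15%) and H2AK119ub-only genes 13.4% (autosomes 20.2 to 31.8%). The X was also beyond the autosomes in the shared H2AK119ub length of WT (68.0%, autosomes 43.2 to 54.5%) and PRC2cKO oocytes (74.7%, autosomes 36.6 to 50.1%). Chromosome 15 had the largest share of genes with both marks, 51.3%.

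In genes of 10 kb or longer with a known strand (n = 11080), the marks differed in the ends they covered. Of genes marked by H3K27me3, 41.9% were marked at the start only and 16.6% at the far end only. For H2AK119ub these shares were 33.4% and 24.3%, and about equal portions were marked at both ends (41.5% and 42.3%).

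The classes were compared with those in the other genotypes. Of the 7728 genes with both marks in the control, 7277 (94.2%) were in this class in WT oocytes as well, where 38.3% of genes had both, and 5972 (77.3%) in PRC2cKO oocytes, where 28.5% had both. Of the 5031 H2AK119ub-only genes, 4124 (82.0%) had the same class in WT and 3665 (72.8%) in PRC2cKO. The lowest share was that of the H3K27me3-only genes: 635 of 1414 (44.9%) were the same in WT, where 4.23% of all genes had this class, and 538 (38.0%) carried both marks there. In PRC2cKO oocytes 812 (57.4%) were the same, beside 6.41% of all genes, and 359 (25.4%) had neither mark. In all 3 genotypes 5888 genes had both marks, 3165 H2AK119ub only and 459 H3K27me3 only. The genotypes differ in the length their lists cover, and these counts were not tested. The PRC2cKO H3K27me3 list held 49553 peaks over 428.2 Mb. Here and in the gene lists below, the same class means a peak in each genotype, not an equal amount of a mark. The scaling between genotypes is not known, so the counts do not measure how much of either mark remained in PRC2cKO oocytes.

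By list, the Hox genes had peaks of both marks in all 3 genotypes, and of the developmental transcription factors 102 had both in WT and 101 in PRC2cKO. Of the H3K27me3-dependent imprinted genes 21 had both in WT and 16 in PRC2cKO. Of the spermatogenesis genes 29 and 17 had both, and of the clustered protocadherins 56 and 34. H2AK119ub-only histone genes numbered 36 in WT and 40 in PRC2cKO, where 29.4% and 26.8% of all genes had this class. Early zygotic genes with H3K27me3 only numbered 2 in WT, where 10 had both, and 7 in PRC2cKO. Rnf2 and Eed had H2AK119ub only in WT, and Ezh2 and Suz12 had neither mark in any of the 3 genotypes.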

How the data were processed

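CUT&Tag was run on oocytes with antibodies to H2AK119ub and H3K27me3. As spike-in, oocytes received Drosophila S2 cells at a set ratio (for example 2000 S2 cells to 1000 oocytes, per the labels' protocols). The submitters' processing notes list SAMtools, Picard 3.0.0, deepTools, Bowtie2 and Trim Galore 0.6.10, with builds dm6, mm10 and GRCm38. Which peak caller and scaling were used, and how 2 samples became 1 list, is not given in the sources used here. Each deposited peak list has no header. The authors deposited the total signal of each peak, read here from the values, on a scale not stated. The authors also deposited a score per peak, read here as the height of its maximum. Both were ranked within a list only. Read depth is unknown from these files.

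Of 16 lists, 6 were used. Peaks on sequences other than the 19 autosomes, X and Y were left out, and no peak lay on Y. The peaks were joined to RefSeq genes of GRCm38.p6 (21887 protein-coding, of which 17492 had a promoter sequence, 21263 promoters in all, none on chromosome 18) with Python 3.11.15, pandas 2.3.3, numpy 2.4.6 and scipy 1.17.1. Overlap functions were tested on simulated lists and checked against bedtools 2.31.1. The 24 gene lists (2937 names, 23 not in the annotation) and the members were chosen with earlier results of these data known. Genes named per list were up to 4 per class with the longest covered length in the 5 kb windows. Over all genes the 10 highest percentiles per class were named, and the 5 widest rank gaps each way. The core Polycomb subunits were named as well. Other genes (exceptions within a list, Cdkn1a, Ddx4, cell type markers and textbook members) were chosen after their values were seen. Printed promoters are the first named gene of a class, or of the Hox, housekeeping and keratin lists, whose own start site had the class and whose 250 bases lay outside annotated genes. The start-site condition, the condition on annotated genes and the choice of those lists were set after the values were seen. Gas8 and Cdca4, first by rank, had no peak within 1 kb of the start and were passed over. Some items are not reported here. Alternatives were other windows, overlaps, rankings, equal list lengths and the WT lists.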

Additional observations from a re-analysis of the deposited data

Results flagged for a closer look

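The order of the marks in width and nesting was opposite in the Eed heterozygous control and in WT oocytes of the same stage. The median H2AK119ub peak was narrower than the median H3K27me3 peak by 0.61 kb in the control (difference -0.61 kb) and wider by 2.67 kb in WT. The nested share of H2AK119ub peaks minus that of H3K27me3 peaks was 10.1 percentage points in the control and -23.1 in WT. With 1 list per group the difference was not tested. Covered lengths moved with it: 497.9 Mb of H2AK119ub and 558.0 Mb of H3K27me3 in the control, 727.6 and 532.1 Mb in WT. Trimming the marks of each genotype to equal covered length left the orders opposite. The trim removes low-signal peaks from the list that was already wider, so it cannot test the order of widths.

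Data outside the comparisons also held signal. On sequences other than the autosomes, X and Y, the control lists held 79 H2AK119ub and 58 H3K27me3 peaks, which were not analysed further.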

How the results depend on the processing

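No paired analysis was possible because each list combines the 2 samples of its group, so no replicate could be left out or used as a block either. Counts of genes with both marks or a single one stayed within 1.5 times of the reported ones in all settings but the following. With start site windows only, which 17492 of 21887 genes have, 5058 genes had both and 3021 H2AK119ub only, and with the WT lists 925 had H3K27me3 only. H2AK119ub was present at 79.9 to 90.1% of H3K27me3 genes over all settings, and in each of 3 other settings 12 of 24 lists exceeded all genes in the share with both marks.

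Shared peaks (H2AK119ub and then H3K27me3, in percent) were 48.7 and 40.3 when 50% of a peak had to be covered, 22.1 and 23.3 with a reciprocal 50%, 49.98 and 65.5 with lists trimmed to equal length, 60.7 and 54.7 with the top 50% by total signal, 57.8 and 53.0 by maximum signal, and 56.4 and 52.8 without peaks whose maximum reached 100, a setting chosen after seeing the data. With equal length and with the reciprocal rule the share of H3K27me3 peaks was the higher, as it was in the WT lists (58.7 and 59.8).

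Nested shares were 24.0 and 15.3 after merging within 3 kb, 23.9 and 13.9 at equal length, 31.4 and 20.9 when 90% of a peak sufficed, 9.59 and 32.7 with the WT lists, and 8.64 and 26.5 with WT lists at equal length (added after seeing the data). Median widths in kb were 4.93 and 5.48 merged, 7.00 and 4.34 in WT, 14.5 and 4.34 in WT at equal length, and 8.69 for H3K27me3 at equal length.

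Shared peaks outranked single ones in all settings. The gap in median percentile was 20.2 and 28.2 points by signal per bp, 21.0 and 23.0 for peaks of 2 to 10 kb, and 18.7 and 20.5 when 50% of the peak had to be covered. The rank correlation of paired peaks (Spearman's rho) was 0.096 for peaks of 2 to 10 kb, 0.52 when 50% was covered and 0.31 in WT. CpG-rich promoters with start site windows made up 35.6% for both marks and 54.6% for H2AK119ub only, and with each promoter's own window (added after seeing the data) 55.2% for H2AK119ub only and 8.63% for H3K27me3 only. The causes of these changes were not tested, beyond the fewer genes, peaks or bases that a setting leaves by construction.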

Other observations

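The start of Ddx4, the germ cell helicase gene whose promoter drives Cre in the control and in PRC2cKO, stood out in both marks of the genotypes that carry Ddx4-Cre. In the control, the H3K27me3 peak (6.36 kb, chromosome 13, 112652032 to 112658393, GRCm38) ran from 6.08 kb before the start to 0.28 kb after it. Its maximum signal was 163 and its signal per bp was at percentile 99.9 of the list. In WT the H3K27me3 peak there ended upstream, at -1.35 kb, with a maximum of 18 and a percentile of 52.8, and in PRC2cKO the maximum was 244 at percentile 99.9. H2AK119ub per bp stood at percentile 99.7 in the control, 85.5 in WT and 99.6 in PRC2cKO. Ddx4 thus had both marks in the control and PRC2cKO and H2AK119ub only in WT. The transgene carries Ddx4 promoter sequence, so its reads and those of the native gene cannot be told apart in these lists, and the part of the transgene was not tested.

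At 3 places the signal reached maxima of 1000 or more in both lists of the control: 3092 and 5247 on chromosome 2 (98662226 to 98667342 for H2AK119ub), 7159 and 6142 on chromosome 12 (16012831 to 16013360), and 1696 and 5048 on chromosome 4, in the region that marks Tmem125 and Cfap57. Of peaks with a maximum of 100 or more, 129 of 141 for H2AK119ub and 666 of 668 for H3K27me3 met the other mark. H3K27me3 peaks of this kind had a median width of 34.4 kb, against 4.47 kb for H2AK119ub. With these peaks left out, a choice made after seeing the data, 6958 genes had both marks, 5762 H2AK119ub only and 1401 H3K27me3 only.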
